A study of Mus musculus with 3 samples.

Results

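The interleukin-1 family genes described here are 10 genes taken by symbol from the gene list of the files, of 32285 genes in all: the ligands Il1b, Il1f9 (interleukin-36 gamma) and Il18, the antagonist Il1rn, and the receptor genes Il1r1, Il1r2, Il1rap, Il1rl1, Il18r1 and Il18rap. They were followed across marker-defined classes of mouse bone marrow cells in 3 droplet single-cell RNA libraries. Of these, 2 were labelled with the genotype Ep300-Znf384-V5-HA, a fusion of the histone acetyltransferase gene Ep300 to the zinc finger gene Znf384 (listed as Zfp384 in mouse) with V5 and HA tags, and 1 was labelled wild type. All came from males aged 6 weeks, and the marrow of femur and tibia was cleared of red cells. Each library joined 5000 sorted live cells of whole marrow and 5000 that were also lineage-negative, so the shares of classes follow that mixture. The strain, the element that drives the fusion and the number of animals are not given in the sources used here. The p-values then measure no more than the spread between these libraries, shared in part over genes, which may be technical. With a single wild-type library, genotype and that library cannot be told apart.

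Interleukin-1 beta is made as an inactive precursor, cut by caspase-1 inside inflammasomes or by neutrophil proteases outside the cell, and signals through a receptor made of IL1R1 and the shared chain IL1RAP. The receptor antagonist, encoded by Il1rn, occupies IL1R1 without signalling, and the decoy receptor IL1R2 binds the ligand without a signalling domain. Interleukin-33 uses IL1RL1 (ST2) with IL1RAP, interleukin-18 uses IL18R1 with IL18RAP, and both act on basophils, mast cells and lymphoid cells.

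Fusion replicates 1 and 2 held 9057 and 8122 barcodes and wild type 9354, with 97192347 and 111836603 UMIs (counted RNA molecules) in fusion and 93262028 in wild type. After filtering, 7307 and 6894 fusion cells and 7434 wild-type cells were kept, with medians of 7344 and 10014 UMIs, against 7434, and pairs of libraries shared 19 to 23 barcodes. The cells fell into 13 classes, each of which had most of its marker genes in at least 10% of its cells in every library. Ep300 was at 69.2 and 52.9 CPM (UMIs of a gene scaled to a fixed total of UMIs) over all cells of the fusion libraries, against 85.8 in wild type, and Zfp384 at 26.5 and 19.5, against 15.5. The files list 0 features named for the fusion, so these tags cannot be assigned to the fused or the normal allele. Mature neutrophils separated by genotype: clusters 6, 11 and 13 held 612, 1209 and 247 cells of fusion replicate 1 and 499, 942 and 143 of fusion replicate 2, against 8, 2 and 0 wild-type cells. Clusters 12 and 24 held 11 and 4, and 12 and 7 fusion cells, against 1273 and 478 wild-type cells. Values for this class therefore compare different clusters, although the 10 genes were left out of the clustering. The summed level of the 8 mature neutrophil markers in the class was 41263 and 38288 CPM in fusion, against 36886 in wild type.

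The genes lie in a few places of the genome (GRCm38). Il1r2, Il1r1, Il1rl1, Il18r1 and Il18rap, together with Il1rl2, run in the same direction within 478 kb of chromosome 1 (40074079 to 40551705). Il1rn (chromosome 2, 24336853 to 24351494) and Il1f9 (chromosome 2, 24186476 to 24193568) lie in a ligand cluster about 105 Mb from Il1b (chromosome 2, 129364570 to 129371139). All 10 genes had RefSeq promoter windows (GRCm38.p6, 250 bases before a start and 50 after it), 16 windows in all. Those of Il1rn, Il1b and Il1r2, the neutrophil genes that fell most, are printed 5′ to 3′, with capitals marking GGGNNNNNCC (an NF-kB type sequence), TGANTCA (an AP-1 type sequence) and runs of 8 A, on either strand. Il1rn has 3 windows, and the one left out overlaps the later one printed.
Il1rn, chr2:24336610-24336909, plus strand: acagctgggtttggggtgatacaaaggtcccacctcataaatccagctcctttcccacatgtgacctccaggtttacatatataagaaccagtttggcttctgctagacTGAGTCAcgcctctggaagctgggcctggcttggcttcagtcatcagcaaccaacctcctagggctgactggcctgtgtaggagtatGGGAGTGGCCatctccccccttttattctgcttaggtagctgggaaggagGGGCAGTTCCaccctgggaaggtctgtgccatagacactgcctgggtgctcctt
Il1rn, later start, chr2:24345041-24345340, plus strand: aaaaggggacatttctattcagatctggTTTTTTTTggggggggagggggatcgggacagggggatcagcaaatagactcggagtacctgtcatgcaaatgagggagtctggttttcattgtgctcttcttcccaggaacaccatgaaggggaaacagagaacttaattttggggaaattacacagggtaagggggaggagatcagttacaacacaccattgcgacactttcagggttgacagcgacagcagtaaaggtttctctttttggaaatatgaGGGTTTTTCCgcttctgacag
Il1b, chr2:129371090-129371389, minus strand: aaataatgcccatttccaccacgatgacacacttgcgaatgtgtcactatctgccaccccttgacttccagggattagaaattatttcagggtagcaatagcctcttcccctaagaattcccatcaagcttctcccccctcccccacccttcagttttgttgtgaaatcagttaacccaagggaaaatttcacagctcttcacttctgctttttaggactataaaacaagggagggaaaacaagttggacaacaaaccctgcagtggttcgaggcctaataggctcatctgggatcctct
Il1r2, chr1:40085843-40086142, plus strand: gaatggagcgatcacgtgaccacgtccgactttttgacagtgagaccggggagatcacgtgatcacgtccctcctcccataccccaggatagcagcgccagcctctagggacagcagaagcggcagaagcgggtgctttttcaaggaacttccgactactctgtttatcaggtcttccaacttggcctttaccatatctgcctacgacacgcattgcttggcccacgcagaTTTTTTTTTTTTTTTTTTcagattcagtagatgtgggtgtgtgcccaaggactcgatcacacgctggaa
The upstream Il1rn window held 2 GGGNNNNNCC matches and 1 TGANTCA match, and the later one 1 GGGNNNNNCC match and 1 run of A. The Il1b window held 0 matches to these letters, to TTGCNNAA (a C/EBP type sequence) or to GAGGAA (a PU.1 type sequence), and the Il1r2 window held 11 overlapping matches to the run of A. Among 32851 windows of the same length, GGGNNNNNCC was found in 50.8%, TGANTCA in 7.81%, TTGCNNAA in 10.8%, GAGGAA in 28.3% and the run of A in 7.87%. A match is a string of letters, not a measured site.

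The members differed in the class where their RNA stood highest, and 5 of the 13 classes led for at least 1 of them. Over the summed cells of a class (plain CPM), Il1b, Il1rn, Il1f9, Il1r2 and Il1rap stood highest in mature neutrophils, Il18 in monocytes, Il1r1 in stem and multipotent progenitors, Il1rl1 and Il18rap in basophils and mast cells, and Il18r1 in T, NK and innate lymphoid cells. Classes were ordered by the mean of the wild-type level and the mean level of the fusion libraries. For Il1rl1 the order of the leading classes was not settled. Basophils and mast cells held 47.7 and 69.2 CPM in fusion, against 87.7 in wild type. The class of T, NK and innate lymphoid cells held 40.9 and 24.3, against 94.3, and erythroblasts 40.7 and 37.5, against 57.2. The wild-type values come from a single library, and the order was not tested. Il1b was at 177 and 219 CPM in fusion mature neutrophils, against 372 in wild type, while its next class, megakaryocytes, held 13.8 and 18.4, against 17.3. The levels of Il1b in megakaryocytes and monocytes overlapped. Il1r1, the signalling receptor for interleukin-1, was at 10.3 and 11.9 CPM in fusion stem and multipotent progenitors, against 22.9 in wild type, and at 6.20 and 5.80, against 6.04, in granulocyte-monocyte progenitors. It was at 0.363 and 0 CPM in fusion mature neutrophils, against 0.167 in wild type (2, 0 and 1 UMIs), a level near 0 in the cells where the ligand and the decoy stood highest. Il1a and Il33 were near 0, with 9 and 4 and with 2 and 2 UMIs over all fusion cells, against 7 and 7 in wild type. CPM from 3′ tags compare 1 gene between classes and libraries, not genes with each other.

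**Figure D1:**
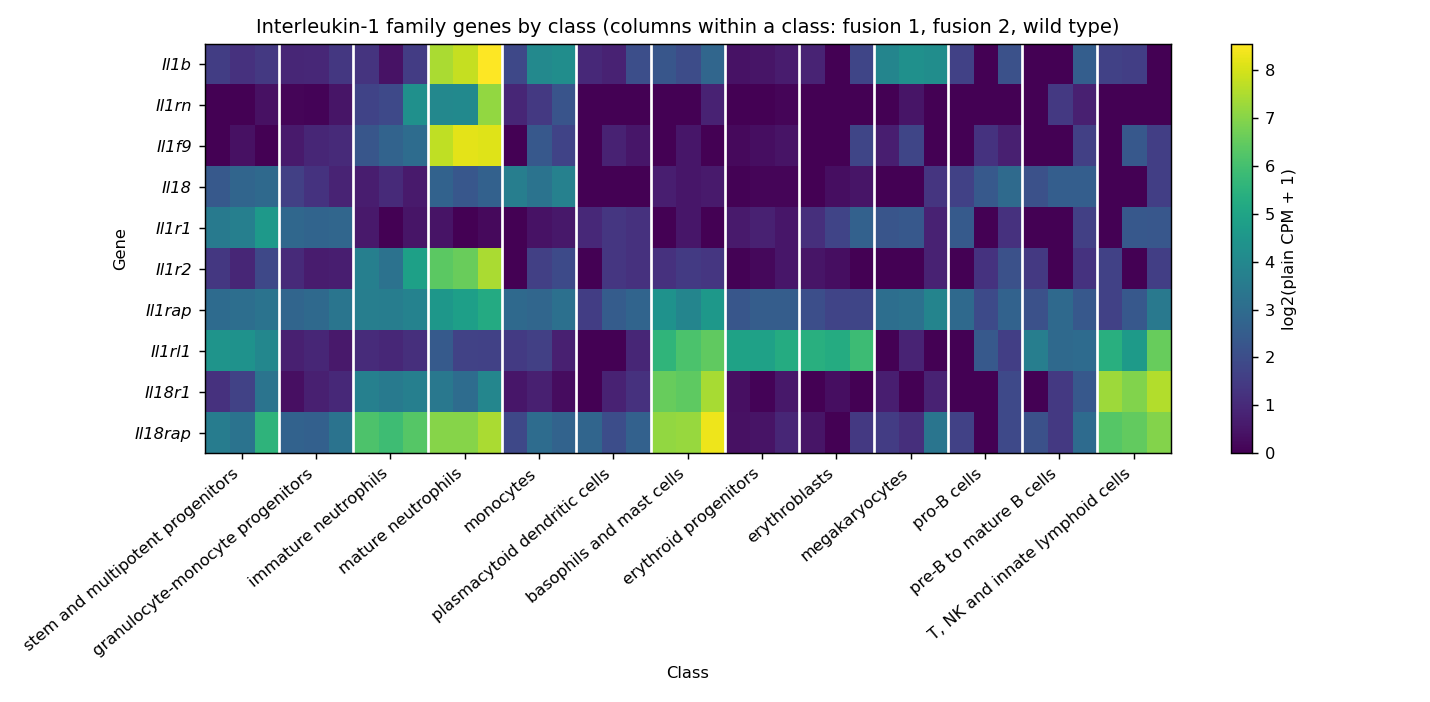
Level of the 10 genes (rows, log2 of plain CPM plus 1) in 13 classes (column blocks), each with fusion 1, fusion 2 and wild type from left to right. The Il1rn cell of wild-type mature neutrophils, at 141 CPM, stands out from the 2 fusion cells beside it, at 14.9 and 15.7.

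Of 130 gene and class pairs, 60 passed the filter on low counts and 14 were lower in fusion, 0 higher (edgeR quasi-likelihood test, Benjamini-Hochberg adjusted p under 0.05 over all genes of a class). Over all genes and classes, 1.91% of pairs were lower and 0.838% higher. A pair could pass the filter through wild type alone: 41 of the 60 had at least 10 UMIs in every library, and 13 of the 14 calls were among them, the exception being Il18r1 in stem and multipotent progenitors. Both fusion libraries were below wild type in 48 of the 60 pairs, against 34.9% of all pairs, both above in 4, and 8 were split. Calls fell in 4 classes: mature neutrophils (6 of 9 members tested), immature neutrophils (2 of 7), basophils and mast cells (3 of 5) and stem and multipotent progenitors (3 of 8). Of all genes tested in these classes, 5.24%, 1.11%, 7.01% and 4.08% were lower, and 3.0%, 1.04%, 3.03% and 1.15% higher. The median log2 fold change of the members tested was -0.69, -0.72, -0.92 and -0.72 in these classes, against 0.02, 0.00, 0.01 and 0.00 over all genes. In the other classes 0 members were called by edgeR: 0 of 6 in monocytes (1.51% of genes lower, 0.815% higher), 0 of 9 in granulocyte-monocyte progenitors (0.0407% and 0.00814%), 0 of 8 in erythroid progenitors (1.62% and 0.555%), 0 of 2 in erythroblasts (1.28% and 0.192%), 0 of 3 in megakaryocytes (0.286% and 0.0212%) and 0 of 3 in T, NK and innate lymphoid cells (0.0% in both directions). Within a class sum, fewer cells with a gene's RNA and less RNA per cell cannot be told apart.

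**Figure D2:**
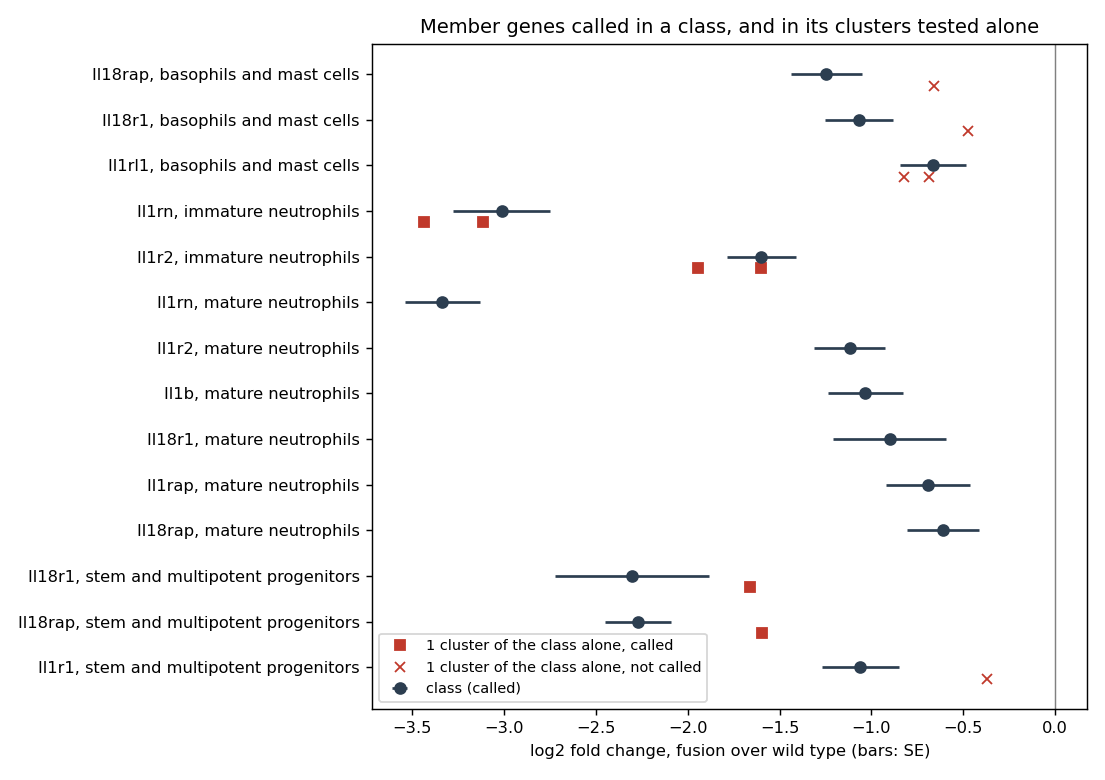
Log2 fold change, fusion over wild type, of the 14 called gene and class pairs (circles, bars show SE), with the same gene in 1 cluster of that class alone (squares called, crosses not called). Clusters needed 40 cells of every library. No cluster of mature neutrophils had them, so the pairs of that class have no such mark. Il1rn stands at -3.34 in mature and -3.01 in immature neutrophils. The values for basophils, and Il1r1 among progenitors, lie nearer 0 or are not called in single clusters.

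The antagonist gene Il1rn showed the largest fall. In mature neutrophils it was at 13.3 and 16.5 CPM (on TMM library sizes, as are all tested values) in the fusion libraries, against 150 in wild type, 10.1 times the fusion level (log2 fold change -3.34 ± 0.21 SE, edgeR quasi-likelihood adjusted p = 8.7e-30). Both fusion libraries lay close together and far below wild type. In the class, 5.24% of genes were lower. In immature neutrophils, where 1.11% of genes were lower, Il1rn was at 2.06 and 2.82 CPM in fusion, against 19.7 in wild type (-3.01 ± 0.27, edgeR adjusted p = 8.6e-05). Clusters 14 and 18 of immature neutrophils held cells of all 3 libraries, and Il1rn was called lower in each alone (-3.43 ± 0.55 and -3.12 ± 0.28, edgeR adjusted p = 0.011 and 0.0047), where 0.628% and 0.42% of genes were lower. The summed level of the 8 mature neutrophil markers in immature neutrophils was 4897 and 4802 CPM in fusion, against 1624 in wild type, and its part in the result was not tested. In monocytes, Il1rn was at 0.869 and 1.72 CPM in fusion, against 3.76 in wild type (-1.47 ± 0.90, edgeR adjusted p = 0.66). The direct comparison of the genotype effect in mature neutrophils and monocytes, where 1.77% of genes differed, gave -1.80 ± 0.75 (edgeR adjusted p = 0.36).

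Among mature neutrophils, 3.50% and 4.93% of fusion cells held an Il1rn UMI, against 35.7% of wild-type cells. Thinned to 1000 UMIs a cell, the shares were 1.42% and 1.74% in fusion, against 14.2% in wild type. Pre-B to mature B cells, which should lack its RNA, held 0 and 1 Il1rn UMI in fusion and 1 in wild type. Their median depths were 2604, 2692 and 2496 UMIs, close to the 2292, 3069 and 3026 of mature neutrophils. Il1b was at 0 and 0 plain CPM in these B cells in fusion, against 4.81 in wild type. The summed level of 7 macrophage markers in the mature neutrophil sums was 7.27 and 7.29 CPM in fusion, against 20.6 in wild type, with 1 of 5 tested markers lower. That of 9 monocyte markers was 1205 and 1071, against 1095 (Ace at 0). The median share of mitochondrial UMIs was higher in both fusion libraries in each of the 13 classes, at 0.572% and 0.539% in fusion mature neutrophils, against 0.416% in wild type, at 1.29% and 1.12%, against 0.901%, in immature neutrophils, at 2.78% and 2.60%, against 2.18%, in basophils and mast cells, and at 3.61% and 3.26%, against 3.23%, in stem and multipotent progenitors. Their part in this or the other results was not tested.

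Il1b, the ligand, also fell, by a smaller log2 fold change than its antagonist. It was at 158 and 230 CPM in fusion mature neutrophils, against 397 in wild type (-1.03 ± 0.20, edgeR adjusted p = 5.3e-05). The groups did not overlap, and fusion replicate 1 was the lowest. With classes built from the wild-type library the call was lost (-0.96). Il1b had 11.9 UMIs for each Il1rn UMI in fusion replicate 1 (95% counting interval 9.46 to 15.1) and 13.9 in fusion replicate 2 (11.2 to 17.6), against 2.64 in wild type (2.44 to 2.86). Of the mature neutrophils with an Il1b UMI, 12 of 346 (3.47%) and 20 of 321 (6.23%) fusion cells also held an Il1rn UMI, against 229 of 679 (33.7%) wild-type cells. These shares lie near those of all mature neutrophils given above, so they restate the fall of Il1rn and show no link to Il1b. Il1bos, an antisense gene that overlaps Il1b, held 23 and 26 UMIs over all fusion cells and 22 in wild type, and the counting is not stated to use strand.

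Much of the Il1b RNA sat in few cells in every library. Cells with at least 5 Il1b UMIs made up 2.98% and 5.61% of fusion mature neutrophils (62 and 90 cells), against 8.75% in wild type (154 cells). They held 48.3% and 59.1% of the class's Il1b UMIs in fusion, against 51.0% in wild type. These counts were not thinned to equal depth, and the median depths of the class were 2292 and 3069 UMIs in fusion, against 3026 in wild type. Cluster 13 was taken because its Il1b level was the highest of all clusters, so its high Il1b follows from that choice. With 247 and 143 fusion cells and 0 of wild type, it held 52.5% and 55.1% of the Il1b UMIs of fusion mature neutrophils. Its leading genes were Il1b, Igfbp6, Csf3r and Cxcr2, and its median UMI count was 0.194 of that over all cells. Il1b was at 1303 and 2596 plain CPM there, and at 163 and 194 in cluster 11, the largest fusion cluster, against 632 in cluster 12, the largest wild-type cluster. Il1rap was also high in cluster 13, at 117 and 240 plain CPM, while Il1rn was at 17.8 and 43.2. These clusters differ in genotype, and cluster 11 lacks the Il1b-rich fusion cells of cluster 13, so their values are a description without a test.

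Il1f9, a ligand of the interleukin-36 group, was not called. It was at 188 and 310 CPM in fusion mature neutrophils, against 297 in wild type, with wild type between the fusion libraries (-0.25 ± 0.21, edgeR adjusted p = 0.63). With doublets kept it was called lower (-0.80). Il18, whose product is also cut by caspase-1, was at 11.3 and 8.58 CPM in fusion monocytes, against 12.7 in wild type (-0.36 ± 0.39, edgeR adjusted p = 0.89), and was called by edgeR in 0 of the 4 classes where it was tested.

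The decoy receptor gene Il1r2 was at 73.9 and 99.9 CPM in fusion mature neutrophils, against 188 in wild type (-1.12 ± 0.19, edgeR adjusted p = 2.7e-06). In immature neutrophils it was at 10.6 and 8.84 CPM in fusion, against 29.6 in wild type (-1.60 ± 0.19, edgeR adjusted p = 6.9e-04). Both stages had fusion libraries well below wild type, and clusters 14 and 18 gave -1.94 ± 0.28 and -1.60 ± 0.22 (edgeR adjusted p = 0.0057 and 0.019). The shared chain Il1rap was at 19.7 and 29.0 CPM in fusion mature neutrophils, against 39.1 in wild type (-0.69 ± 0.23, edgeR adjusted p = 0.038), and at -0.43 without fusion replicate 1. Of the interleukin-18 receptor chains, Il18r1 was at 8.62 and 7.48 CPM in fusion, against 15.1 in wild type (-0.90 ± 0.31, edgeR adjusted p = 0.049), and Il18rap at 113 and 131, against 186 (-0.61 ± 0.20, edgeR adjusted p = 0.032). The calls of Il1rap, Il18r1 and Il18rap in this class were lost under 6, 8 and 5 of 10 alternatives, DESeq2's test among them for each.

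**Figure D3:**
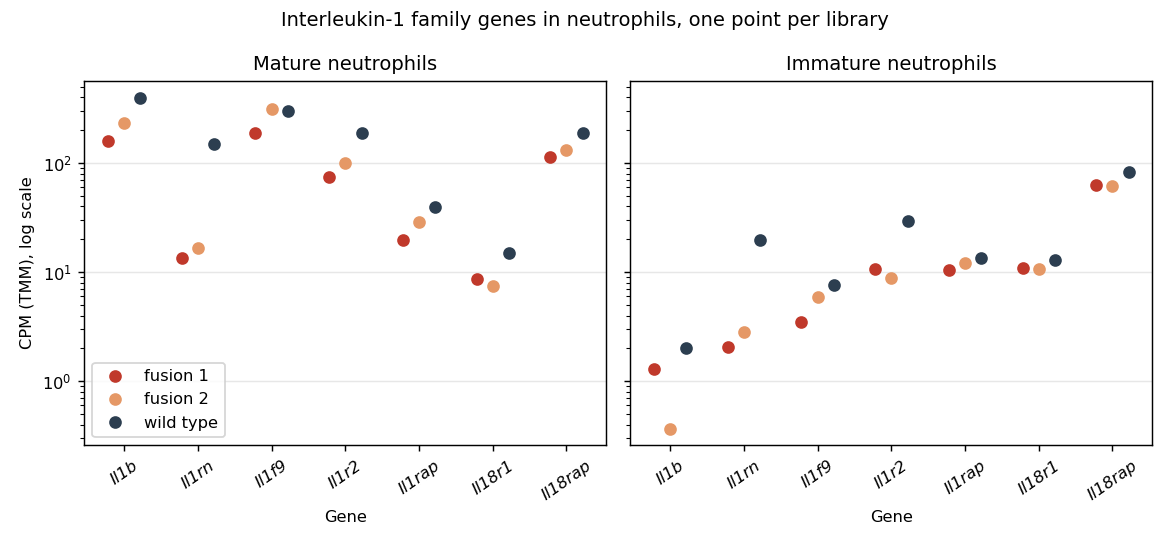
CPM on TMM library sizes (log scale) of 7 genes in mature and immature neutrophils, 1 point per library, fusion libraries left of wild type. Il1rn lies at 13.3 and 16.5 in fusion mature neutrophils, against 150 in wild type, while the Il1f9 point of wild type, at 297, lies between the fusion points.

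Il1rn and Il1r2 were called lower in each of 5 bins of neutrophils ranked by maturity genes. Neutrophils of each library were ranked by 8 late and 8 early marker genes and divided into 5 equal bins, from bin 1 (least mature) to bin 5 (most mature). Cells are thus matched by rank within a library, and a bin need not hold the same stage in each genotype. Il1rn was at 0.730 and 0.693 CPM in fusion in the least mature bin, against 9.90 in wild type, and at 14.1 and 16.2 in the most mature bin, against 180. It was called lower in all 5 bins, from -3.76 ± 0.42 in the least mature to -3.57 ± 0.26 in the most mature (edgeR adjusted p = 0.017 and 3.8e-13). Il1r2 was also called in all 5, from -1.99 ± 0.21 to -0.99 ± 0.23. Il1b was called in the upper 4, with 112 and 137 CPM in fusion, against 410 in wild type, in the most mature bin (-1.72 ± 0.22, edgeR adjusted p = 3.3e-07), where fusion levels were below those of the bin before it, and wild type was above. Il1f9 was called lower in the second bin alone, at 41.8 and 39.9 CPM, against 66.8 (-0.71 ± 0.21, edgeR adjusted p = 0.020). From the least to the most mature bin, 0.282%, 3.31%, 3.55%, 3.78% and 3.67% of genes were lower.

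**Figure D4:**
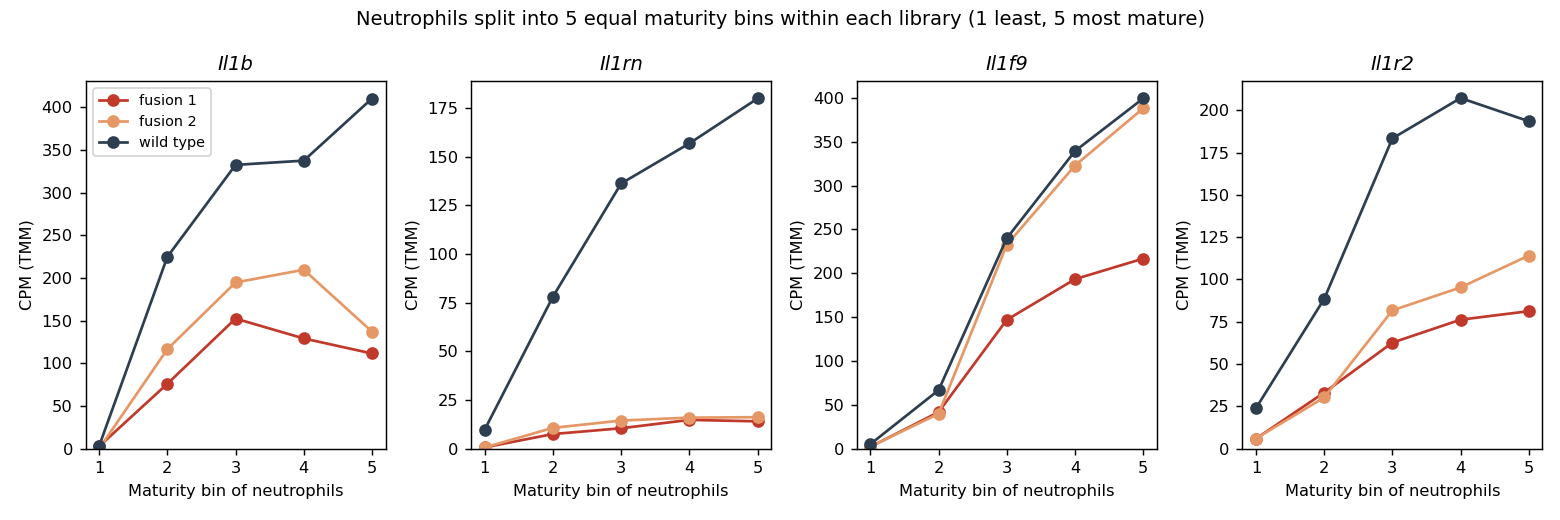
CPM on TMM library sizes of Il1b, Il1rn, Il1f9 and Il1r2 in 5 bins of the neutrophils of each library ranked by maturity genes, from least (1) to most mature (5). Il1rn stays at or below 16.2 in both fusion libraries and reaches 180 in wild type.

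The genotype effect was also compared directly between mature and immature neutrophils, and 0 members were called by the edgeR test of the difference itself, against 0.308% of genes. The lowest p was that of Il18r1 (difference -0.67 ± 0.29, edgeR adjusted p = 0.50, unadjusted p = 0.045), and that of Il1rn was -0.33 ± 0.29. In these tests and those against monocytes, 0 of the 9 members tested were called in either direction by edgeR or by DESeq2's test, and 2 had an unadjusted p under 0.05, Il18r1 against immature neutrophils and Il1rn against monocytes.

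Basophils and mast cells, in which 7.01% of genes were lower, held a smaller share of RNA of both interleukin-18 receptor chains and of the interleukin-33 receptor. Il18rap was at 136 and 148 CPM in fusion, against 336 in wild type (-1.25 ± 0.19, edgeR adjusted p = 8.9e-09). Il18r1, its ligand-binding partner, was at 89.0 and 85.0, against 182 (-1.07 ± 0.19, edgeR adjusted p = 6.5e-07). Il1rl1 was at 45.4 and 69.5, against 92.7 (-0.66 ± 0.18, edgeR adjusted p = 0.0049), with fusion replicate 2 between the other libraries, and moved to -0.41 without fusion replicate 1 and -1.03 without fusion replicate 2. Il18r1 and Il18rap were lost under DESeq2's test, and Il1rl1 under that test and with doublets kept.

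The class joined 2 clusters whose mixture differed by genotype. Cluster 15, led by Prss34 and Mcpt8 (basophil proteases), held 121 and 172 fusion cells, against 548 of wild type. Cluster 16, led by Gzmb, Lmo4 and Gata2, held 76 and 100, against 51. Il18r1 was at 162 and 137 plain CPM in cluster 15, against 197 in wild type, and at 3.04 and 8.40 in cluster 16, against 0. In cluster 15 alone Il18r1 gave -0.47 ± 0.22 (edgeR adjusted p = 0.46), Il18rap -0.66 ± 0.22 (0.21 by the same test) and Il1rl1 -0.69 ± 0.27 (0.35), and in cluster 16 alone Il1rl1 gave -0.82 ± 0.28 (0.46). None was called, and 1.18% and 0.24% of genes were lower in these clusters. The summed level of 9 basophil and mast cell markers in the class was 26216 and 30142 CPM in fusion, against 57058 in wild type, with 6 of the 8 tested markers lower and Tpsb2 at 0. That of 8 mature neutrophil markers was 544 and 516, against 1510. Their part in the result was not tested.

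In stem and multipotent progenitors, in which 4.08% of genes were lower, Il18rap was at 10.7 and 8.73 CPM in fusion, against 46.9 in wild type (-2.27 ± 0.18, edgeR adjusted p = 5.9e-05). Il18r1 was at 1.28 and 2.30, against 8.94 (-2.30 ± 0.42, edgeR adjusted p = 0.0088), and Il1r1 at 10.1 and 12.1, against 23.1 (-1.06 ± 0.21, edgeR adjusted p = 0.014). Each had both fusion libraries below wild type, as had 34.9% of all gene and class pairs. Cluster 8, led by Dntt, Flt3 and Hlf, held 248 and 245 fusion cells, against 426 of wild type, and cluster 2, led by Apoe, Meis1 and Gata2, held 397 and 378, against 232. In cluster 8 alone, where 2.8% of genes were lower, Il18rap (-1.60 ± 0.20, edgeR adjusted p = 1.7e-08) and Il18r1 (-1.66 ± 0.44, edgeR adjusted p = 0.017) were called, and Il1r1 was not (-0.37 ± 0.21, edgeR adjusted p = 0.51). Il1r1 was at 25.6 and 27.8 plain CPM in cluster 8, against 34.1 in wild type, and at 0.535 and 0.764, against 0, in cluster 2. The summed level of 8 lymphoid progenitor markers in the class was 992 and 985 CPM in fusion, against 2253 in wild type, that of 6 group 2 innate lymphoid markers 18.1 and 23.4, against 93.9, and that of 9 monocyte markers 51.0 and 44.8, against 226 (Ace at 0). Their part in the result was not tested. Of 9 alternatives, the call of Il18rap was lost with classes from the wild-type library and when clustered without called genes, and that of Il1r1 under 5. Il18r1 was tested in only 7 alternatives, and its call was lost under DESeq2's test and at Leiden resolution 2.

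Il1rl1, the interleukin-33 receptor gene, gave 19.9 and 18.9 CPM over all fusion cells, against 18.1 over all wild-type cells, while both fusion libraries were below wild type in each of the 4 classes where it stood highest. In erythroid progenitors it was at 28.5 and 29.0 CPM in fusion, against 38.0 in wild type (-0.40 ± 0.12, edgeR adjusted p = 0.12), and in erythroblasts at 39.5 and 38.0, against 58.8 (-0.60 ± 0.19, edgeR adjusted p = 0.17). Neither was called. The share of erythroid progenitors was 24.6% and 25.2% in fusion, against 10.6% in wild type. In stem and multipotent progenitors Il1rl1 was at 20.1 and 19.8, against 14.5 (0.46 ± 0.19, edgeR adjusted p = 0.27), but in cluster 2 alone, which held most of its UMIs, it gave -0.41 ± 0.20 (edgeR adjusted p = 0.67), and 0.234% of genes were lower.

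Among T, NK and innate lymphoid cells edgeR called 0 of 7239 genes in either direction (395 had an unadjusted p under 0.05), while DESeq2's test called 4 lower and 1 higher. The 6 alternatives that chose or sampled the cells of the class in another way called 59 to 93 genes lower. Il1rl1 was at 40.2 and 25.4 CPM in fusion, against 101 in wild type (-1.61 ± 0.29, edgeR adjusted p = 0.78), and was called lower under these 6 alternatives, with adjusted p from 1.0e-07 to 0.0065 by the same test, and not under the other 3 tested (0.75 to 0.999, the last by DESeq2). Il18r1 was at 152 and 127 CPM, against 202, and Il18rap at 76.2 and 93.3, against 133, neither called. A gate for NK cells, which carry both chains, held 2 and 0 cells of this class in fusion, against 30 in wild type, and its part in these values was not tested. A gate for group 2 innate lymphoid cells, which respond to interleukin-33, took cells with UMIs of Gata3 and Rora and 0 of the CD3 genes and Ncr1. Il7r, Il2ra, Rnf128 and Areg, the other listed markers of these cells, were not part of the gate. Whether it held the same mix of cells in each genotype was not tested. It held 18 and 13 fusion cells and 53 wild-type cells, with median depths of 6673 and 5961 UMIs, against 4041. Il1rl1 had 8 and 6 UMIs there in fusion, at 63.4 and 60.3 plain CPM, against 83 UMIs in wild type, at 255 CPM. These UMIs lay in 3 and 3 fusion cells, against 32 wild-type cells. Il1rl1 was called lower in the gate alone (-2.18 ± 0.45, edgeR adjusted p = 1.8e-04), where 1.45% of genes were lower. Il18r1 ran the other way, at 238 and 281 plain CPM in the fusion gate, against 108 in wild type (1.10 ± 0.42, edgeR adjusted p = 0.21). Cells of the class that met no gate (15 and 13 in fusion, 48 in wild type) held 10 and 6 Il1rl1 UMIs in fusion, against 48. That was 174 and 64.8 plain CPM, against 201 in wild type. The counting interval of fusion replicate 1 (83.3 to 320) overlapped that of wild type (148 to 267), and these cells were not tested alone. In the T cell gate (80, 65 and 122 cells in fusion 1, fusion 2 and wild type), Il18r1 gave -0.85 ± 0.33 (edgeR adjusted p = 0.25), with 1.4% of genes lower. The gates were fitted after the data had been seen, and the gate sums rest on few cells.

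**Figure D5:**
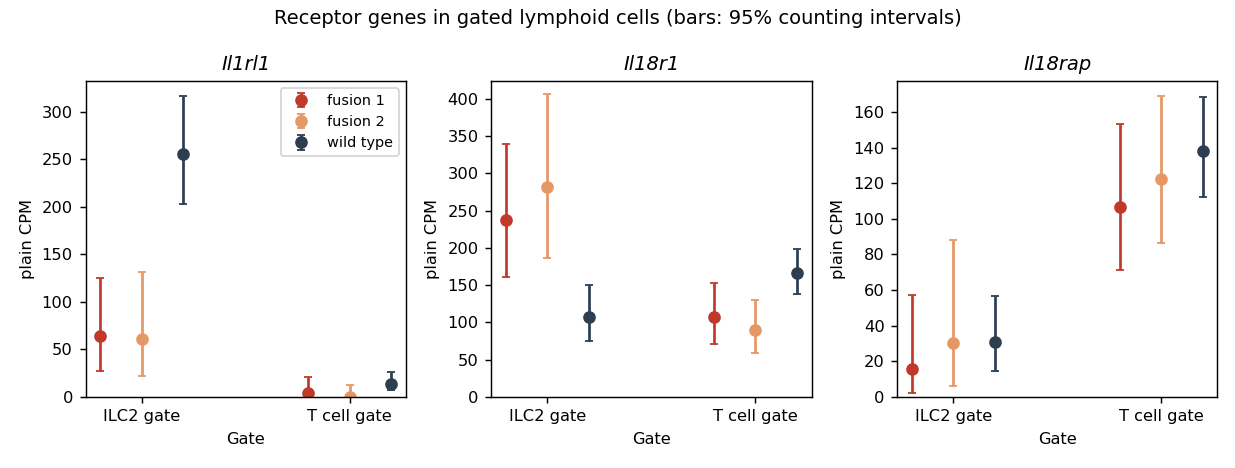
Plain CPM of 3 receptor genes in the group 2 innate lymphoid (ILC2) and T cell gates, with exact 95% Poisson intervals that cover counting error only, fusion libraries left of wild type. Il1rl1 lies at 63.4 and 60.3 in the fusion ILC2 gate, against 255 in wild type, and Il18r1 at 238 and 281, against 108.

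Among 80 other genes of the pathway, 51 of 649 gene and class pairs tested were lower (7.86%) and 2 higher (0.308%), against 1.91% lower and 0.838% higher over all genes and classes. Of 20 genes tested for inflammasomes and ligand processing in mature neutrophils, 9 were lower, with a list median of -0.60 against 0.02 over all genes. The 9 include the granule protease genes Elane, Prtn3 and Ctsg, which were also lower in classes not known to make them. Casp1, the protease that matures interleukin-1 beta, was at 20.5 and 21.3 CPM in fusion, against 38.0 in wild type (-0.86 ± 0.23, edgeR adjusted p = 0.0049). Casp4, which senses bacterial lipid and is the mouse caspase-11 gene, was at 17.7 and 41.0, against 58.6 (-1.01 ± 0.23). Nlrp3, a sensor that builds an inflammasome, was at 43.3 and 36.6, against 67.0 (-0.74 ± 0.20, edgeR adjusted p = 0.0067). Irak3, a kinase-like brake on the receptors' signal, was at 40.7 and 45.3, against 67.9 (-0.66 ± 0.20, edgeR adjusted p = 0.020). It was the 1 adaptor or kinase called of 17, near the 5.24% of all genes lower in this class, and 0 of 12 NF-kB genes were called by edgeR.

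In basophils and mast cells, 5 of 9 inducible target genes were lower, against 7.01% of all genes. Among them Cxcl2, a chemokine gene outside the rule for named genes, rests on fusion replicate 2: it was at 26.7 and 3.01 CPM in fusion, against 24.5 in wild type. Ptgs2 (cyclooxygenase-2) was at 13.7 and 14.2 CPM in fusion, against 89.2 in wild type (-2.67 ± 0.23, edgeR adjusted p = 1.0e-28), and Il6 at 172 and 100.03, against 280 (-1.05 ± 0.19). The chemokine genes Ccl3 and Ccl4 gave -1.22 ± 0.22 and -1.01 ± 0.22. Of 11 NF-kB genes tested in this class, 3 were lower, Nfkbid, Nfkbiz and Tnfaip3, and Irak3 (-0.99 ± 0.18) and Nlrp3 (-1.33 ± 0.24) were lower as well. The clusters joined in this class differ in share by genotype, and the part of that mixture in these values was not tested. The granule protease genes Elane, Prtn3 and Ctsg, listed because their products cut interleukin-1 beta, were lower in mature neutrophils (-1.32 ± 0.21, -1.59 ± 0.20 and -0.97 ± 0.21), in pro-B cells (-3.95, -3.19 and -2.90) and in erythroblasts (-6.08, -5.64 and -5.71). In pro-B cells 0.377% of genes were lower. Pro-B cells and erythroblasts are not known to make them, and whether free RNA takes part was not tested. Lcn2, an iron-binding neutrophil protein gene, was listed as an inducible target and also served as an immature neutrophil marker. It was lower in erythroblasts (-3.08 ± 0.27), in pre-B to mature B cells (-1.67 ± 0.27) and in stem and multipotent progenitors (-0.93 ± 0.17). Whether free RNA takes part in these values was not tested either.

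In monocytes Ctsc, the gene of the protease that activates the granule proteases, was at 209 and 259 CPM in fusion, against 616 in wild type (-1.40 ± 0.24, edgeR adjusted p = 6.2e-05). In stem and multipotent progenitors Aim2, a DNA sensor of inflammasomes, was at 16.6 and 22.4 CPM in fusion, against 40.4 in wild type (-1.05 ± 0.18, edgeR adjusted p = 0.0077), and the NF-kB subunit gene Rel at 35.4 and 36.9, against 61.5 (-0.77 ± 0.14, edgeR adjusted p = 0.0080). Clusters of this class also differ in share by genotype, and the part of that mixture in both values was not tested. The pairs that rose were Ctsg in monocytes, at 635 and 603 CPM in fusion, against 274 in wild type (1.17 ± 0.27), and the inflammasome adaptor gene Pycard in erythroblasts (0.81 ± 0.19).

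The genes whose levels ran most like each member were found by Pearson's r of log2(CPM + 1) over 39 sums of 13 classes and 3 libraries, among 8335 genes. Sums of a library share its cells and depth, so r is a description. Il1rn ran most like Acta2, Amer2 and Slfn4 (0.898, 0.896 and 0.892), and Il1b like Snap23, Ppp1r3d and Acta2 (0.833, 0.827 and 0.818). Il1f9 ran like Retnlg, Nlrp12 and Mirt2 (0.942, 0.932 and 0.930), and Il1r2 like Osgin1, Fpr1 and Nlrp12 (0.937, 0.924 and 0.921). Sytl3 and Sytl1 were among the genes that ran most like Il18r1 (0.893 and 0.872). Il18rap was nearest to Hcst, Rinl and Kdm6b (0.901, 0.893 and 0.873), and Il1rl1 to Ugcg, Acss2 and Aqp11 (0.833, 0.799 and 0.792). Il1rap was nearest to Alox5, Cxcr2 and Pygl (0.855, 0.845 and 0.842), Il18 to Apobec1, Wfdc17 and Parp14 (0.775, 0.708 and 0.695), and Il1r1 to Ctr9, Bphl and Adgrl4 (0.650, 0.635 and 0.630).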

How the data were processed

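The deposited values are UMI counts, not normalized, of each gene in each barcode. The submitters' processing notes name Cell Ranger 5.0.1, bcl2fastq 2.20.0.422 and the build GRCm38; the file headers name Cell Ranger 5.0.0. Droplet 3′ tags count transcript ends, not whole transcripts, and the sources used here do not give how strand was counted.

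Cells needed 1000 UMIs and 400 genes, with no more than 10% of UMIs mitochondrial. Predicted doublets were removed (scrublet in scanpy 1.11.5, expected rate 0.06), 231 and 319 in fusion and 191 in wild type. Cells were clustered without integration on 2000 variable genes, from which the 10 members were left out, with 30 components, 15 neighbours and Leiden resolution 1 (igraph 0.11.9). Clusters took the name of the marker list with the best mean score and at least 3 genes in 10% of cells, or of the list with more genes among the 10 leading genes, so a class name means resemblance by markers. Counts were summed per class and library and tested with edgeR 4.0.16 (filterByExpr, TMM, quasi-likelihood, R 4.3.3). Only the fusion pair gives a spread (1 residual degree of freedom), and wild type is assumed to vary like it. The quasi-likelihood fit also draws each gene's spread towards that of all genes in the same fit. A p-value therefore does not rest on the spread of that gene alone. Calls made in some classes, bins, clusters or gates and not in others do not measure a difference between them. Differences between classes were tested as an interaction with library as a block. Intervals are exact at 95% and cover counting error only. DESeq2 1.42.0 was an alternative.

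The members, marker and pathway lists were chosen with earlier results of these data known. All members were described, of the other pathway lists up to 20 genes called in a class at a mean of at least 20 CPM there were named, by size of change, not each of their pairs, and the 3 most alike genes are given per member, except that 1 gene is not reported here. Values for single clusters, gates and the other maturity bins were added after seeing the data.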

Additional observations from a re-analysis of the deposited data

How the results depend on the processing

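Against the 14 lower calls of members, DESeq2's test gave 6 and classes built from the wild-type library 8, while the other alternatives gave 11 to 18, the most with doublets kept. Higher calls stayed at 0 throughout these alternatives. Among the other pathway genes, DESeq2's test gave 18 lower pairs, against 51, and 1 higher, and 5 were higher without a gene filter, against 2. No call changed sign, and the cause of these shifts was not tested. Il1rn and Il1r2, in mature and immature neutrophils, were called under each tested alternative, with Il1rn from -3.65 to -3.31 in mature neutrophils. Leaving out a fusion library gave -3.50 and -3.19 for Il1rn and -1.33 and -0.79 for Il1b in mature neutrophils, values with no test. Outside the 14, 13 results of the alternatives became calls, 6 of them Il1rl1 in T, NK and innate lymphoid cells. No paired analysis was possible because a single number is shared by the groups and it was given in accession order. With 2 libraries against 1, counts near 0, as for Il1r1 outside progenitors, show no difference at this depth.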
